A study of Schmidtea mediterranea with 36 samples.

Results

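In *control(RNAi)* tail fragments of the planarian *Schmidtea mediterranea*, 1094 transcripts had their highest level 72 h post-amputation (HPA), and the 150 of them with the widest margin are described here. Candidates were the 53415 transcripts with an ID starting SmedASXL_ that were listed at all 5 tail time points, out of 71232 transcripts in the series, with *alx-3* itself (SmedASXL_006490) left out. A transcript was kept when its mean normalized count in controls at 72 HPA was at least 50, which held for 18054, and when each of the 3 control values at 72 HPA lay above each of the 12 other control tail values. Levels were taken as CPM, the normalized count divided by the summed normalized counts of its library and multiplied by 1000000, on the log2(CPM + 0.1) scale. The kept transcripts were ranked by the 72 HPA mean minus the next highest time mean, and the first 150 were taken. The transcripts were thus chosen by their control tail values, which are given as a description only; tests were made in *alx-3(RNAi)* tails and in intact animals, whose libraries the choice did not use.

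The study compared *alx-3(RNAi)* animals, fed dsRNA against the homeobox gene *alx-3*, with *control(RNAi)* animals fed *GFP* dsRNA. All animals were of the asexual strain CIW4 and had received 9 RNAi feedings, so both arms had eaten dsRNA and differed in its target. RNA was taken from tail pieces cut below the pharynx at 5 times after the cut (0.5 HPA, 6 HPA, 24 HPA, 48 HPA, 72 HPA) and from intact animals, with 3 biological replicates in each of the 12 groups and 36 libraries in all. RNA interference by feeding lowers a transcript throughout the animal and does not remove the gene, and a tail fragment pools every cell type of the piece.

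A planarian tail fragment rebuilds a head from neoblasts, the dividing adult stem cells, which divide in a first body-wide wave and later in a second wave near the wound. Over the same days a blastema of new tissue forms, positional signals in muscle are reset, and Wnt signaling is held low at the wound that will make a head. The 72 HPA samples fall at the second wave of division and at the time when the anterior pole, a small organizing group of cells at the new front end, is forming. None of the 150 IDs carries a gene name, so they are given by ID, and what their products do is not stated.

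The libraries summed to between 50.9 and 70.9 M normalized counts (median 58.5 M), and ribosomal RNA took 11.5% to 14.8% of them. The *alx-3* transcript was at 12 to 19.5 CPM in control libraries and at 2.58 to 5.99 CPM in *alx-3(RNAi)* libraries, with no overlap. In freshly cut *alx-3(RNAi)* tails the head-end genes *ndk*, *sfrp-1* and *wnt2-1* were lower than in intact animals and the tail-end genes *Fzd-d* and *wnt11-1* were higher, by log2 differences of intact minus 0.5 HPA of 3.73, 2.64, 2.59, -1.75 and -1.60. These were the largest. *notum* and *wntP-2* differed by 0.56 and -0.69, and *FoxD1* and *wnt1* by -0.01 and -0.04. Of 6 head-end genes 4 were called higher in intact animals and 0 lower, and of 7 tail-end genes 0 and 5 (limma, adjusted p under 0.05). Of all transcripts 9.75% and 6.5% were. One library stood apart. Without intact *alx-3(RNAi)* replicate 2, the comparison of the 2 arms in intact animals called 1846 transcripts higher and 4128 lower, against 137 and 355 with it, and results that rest on this library are given both ways below.

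The 150 transcripts were mostly low. Their control mean at 72 HPA had a median of 1.95 CPM and ran from 0.902 to 1255 CPM; 77 lay under 2 CPM, 54 between 2 and 10 CPM and 19 at 10 CPM or more. Values are not divided by transcript length, so levels are compared here between samples and not between transcripts. The 72 HPA mean exceeded the next highest time by a median log2 difference of 0.52, from 1.12 at rank 1 to 0.42 at rank 150. The next highest time was 48 HPA for 87 transcripts, 0.5 HPA for 28, 6 HPA for 23 and 24 HPA for 12. The limit of 150 fell in a smooth series: ranks 148 to 150 (SmedASXL_071047, SmedASXL_077487, SmedASXL_001811) had margins of 0.4221, 0.4211 and 0.41978, and ranks 151 to 153 (SmedASXL_029534, SmedASXL_015871, SmedASXL_008026) had 0.41977, 0.41592 and 0.41588. Among the 150, 14 formed 7 pairs with neighbouring ID numbers; whether the 2 IDs of a pair belong to 1 gene was not tested.

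The average level of the 150 transcripts was flat until 24 HPA in both arms and then rose in both. The mean log2(CPM + 0.1) over the transcripts was 0.68 to 0.79 in the control libraries at 0.5 HPA, 0.79 to 1.09 at 48 HPA and 1.54, 1.59 and 1.64 at 72 HPA. In *alx-3(RNAi)* it was 0.68 to 0.80 at 0.5 HPA, 0.81 to 1.00 at 48 HPA and 1.05, 1.19 and 1.05 at 72 HPA. Each *alx-3(RNAi)* library at 72 HPA was above each earlier *alx-3(RNAi)* tail library and below each control library at 72 HPA. Intact animals were lower again, at 0.77 to 0.95 in controls and 0.82 to 0.84 in *alx-3(RNAi)*. In whole fragments and animals, fewer cells of a type and less RNA per cell cannot be told apart.

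**Figure D1:**
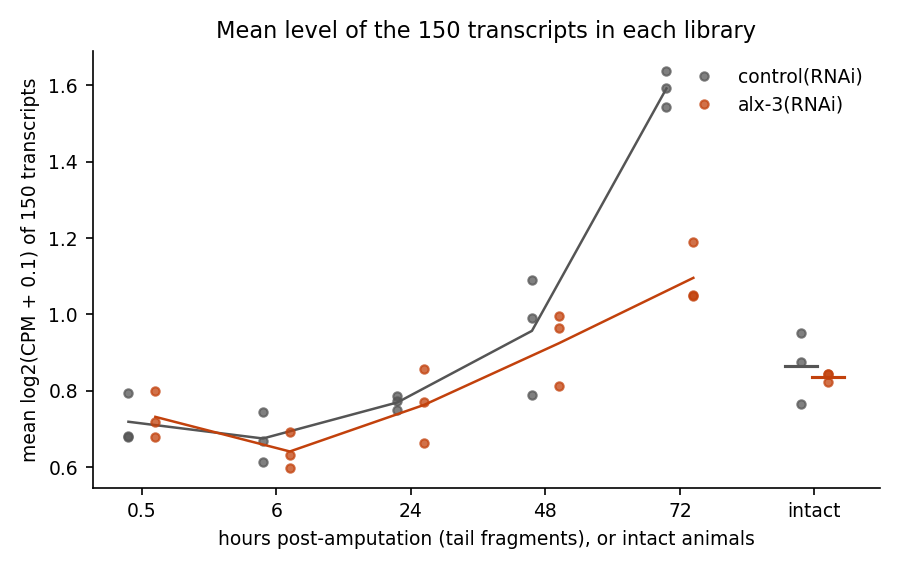
Mean log2(CPM + 0.1) over the 150 transcripts (y axis) in each of the 36 libraries, by hours post-amputation or in intact animals (x axis, not to scale in time); points are libraries, lines join group means of tail fragments and short bars are the means of intact animals. Control libraries, whose tail values chose the transcripts, stood at 1.54 to 1.64 at 72 HPA, and *alx-3(RNAi)* libraries at 1.05 to 1.19.

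In *alx-3(RNAi)* tails 40 of the 150 transcripts were higher at 72 HPA than over the 4 earlier times, and 0 were lower. Among all 36911 transcripts tested, 3.15% were called higher and 1.63% lower (limma on log2(CPM + 0.1), 15 *alx-3(RNAi)* tail libraries, adjusted p under 0.05). All 150 passed the filter on low values, which asked for 10 or more normalized counts in 3 or more of these libraries. The choice had asked for higher counts, so a stricter filter was also used, a mean of at least 50 in these libraries. With it, 34 of 110 of the transcripts were called higher and 0 lower. Of all 17769 transcripts that passed it, 1546 were higher and 682 lower. At an unadjusted p under 0.05, 64 were higher and 0 lower, where 9.81% and 6.98% of all transcripts were. The median log2 difference was 0.27 (range -0.23 to 2.18) over the 150 and 0.01 over all transcripts tested, and 13 of the 150 were below 0. Without 72 HPA replicate 1 or 3 of *alx-3(RNAi)* the count of calls fell to 26 or 25. Higher calls over all transcripts fell from 1162 to 609 or 464 in the same fits.

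Calls followed the level of the transcript. Of the 19 transcripts at 10 CPM or more in controls at 72 HPA, 18 were called higher in *alx-3(RNAi)* tails, against 11 of 54 at 2 to 10 CPM and 11 of 77 under 2 CPM. The median standard error of the log2 difference was 0.09, 0.13 and 0.17 in these classes, so the precision fell with the level. The median log2 difference itself was 0.58, 0.23 and 0.25. The 1 transcript at 10 CPM or more that was not called was SmedASXL_067075, at 9.68, 7.35 and 9.27 CPM in the 3 *alx-3(RNAi)* libraries at 72 HPA and 8.32 to 9.52 CPM at 48 HPA (log2 difference from the earlier times 0.25, SE 0.09, adjusted p = 0.133). Calls also differed with the shape of the control profile: 36 of the 87 transcripts with 48 HPA as the next highest control time were called, and 4 of the other 63 (2 of 28 for 0.5 HPA, 0 of 23 for 6 HPA and 2 of 12 for 24 HPA). No test was made between these classes. Calls over all transcripts were not counted by class, so whether these differences are particular to the 150 is not known. With the stricter filter above, 1546 of all 17769 transcripts were called higher, a larger share than the 1162 of 36911 with the main filter.

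SmedASXL_013829 was the only one of the 150 that was called higher at 72 HPA than at each earlier time in *alx-3(RNAi)* tails. It was named after its values were seen. Its *alx-3(RNAi)* levels were 195, 191 and 186 CPM at 0.5 HPA, 218, 219.6 and 205 CPM at 6 HPA, and 219.7, 226 and 227 CPM at 24 HPA. They went on to 261, 265 and 272 CPM at 48 HPA and 338, 319 and 367 CPM at 72 HPA, so the 3 last libraries stood clear of the 12 others. In controls the same transcript went from 179 to 192 CPM at 0.5 HPA to 405, 449 and 481 CPM at 72 HPA, and at 72 HPA the 2 arms did not overlap in CPM but did with the authors' scaling. Its log2 difference in *alx-3(RNAi)* was 0.36 (SE 0.05, adjusted p = 0.0151) for 72 over 48 HPA and 0.62 (SE 0.04, adjusted p = 5.95e-08) for 72 HPA over the earlier times. Of all transcripts tested, 0.00813% were called above each of the 4 earlier times and 0.0108% above 48 HPA, and the adjusted p for 72 over 48 HPA ran from 0.00417 to 0.303 over the alternatives. It ended with median of ratios scaling (0.303), and without 48 HPA replicate 1 (0.149) or 2 (0.0800) or 72 HPA replicate 1 (0.0719) or 3 (0.0577) of *alx-3(RNAi)*.

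Against the single earlier times, 24 of the 150 were called higher at 72 than at 24 HPA, 47 than at 6 HPA and 45 than at 0.5 HPA, with 0.851%, 6.19% and 7.69% of all transcripts called the same way. None was called lower than at 24 or 6 HPA in limma, where 1.05% and 4.19% of all were. Compared with 48 HPA, 1 was called higher and 0 lower (0.0108% and 0.0135% of all), with 29 higher and 0 lower at an unadjusted p under 0.05 in limma, where 3.65% and 1.89% of all were. The 1 transcript called lower at 72 than at 0.5 HPA (7.13% of all) was SmedASXL_077487. It was at 1.81, 1.61 and 3.17 CPM at 0.5 HPA and 1.13, 1.18 and 1.34 CPM at 72 HPA in *alx-3(RNAi)*, with no overlap (log2 difference -0.75, SE 0.24, adjusted p = 0.0431).

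The largest rises in *alx-3(RNAi)* tails belonged to SmedASXL_016707, SmedASXL_014881 and SmedASXL_073101, which took different courses. SmedASXL_016707 climbed early. It was at 6.67, 5.30 and 6.35 CPM at 0.5 HPA, 48.1, 26.8 and 51.0 CPM at 24 HPA, and 88.2, 129.6 and 98.6 CPM at 48 HPA in *alx-3(RNAi)*. At 72 HPA it was at 99.2, 102 and 132 CPM, which overlapped the 48 HPA libraries, so the 72 HPA level had been reached by then. Intact *alx-3(RNAi)* animals held 3.26, 1.65 and 2.25 CPM, below each 0.5 HPA library (intact minus 0.5 HPA -1.36, SE 0.22, adjusted p = 0.00478). The 72 HPA rise over the earlier times was 2.18 (SE 0.15, adjusted p = 1.49e-07), and controls at 72 HPA, at 73.0, 114 and 119.6 CPM, overlapped *alx-3(RNAi)*.

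SmedASXL_014881 was high in whole intact animals, low in freshly cut tails, and higher in later tails. No uncut tail was measured, so body region and cutting cannot be told apart where intact animals are set against tails. Intact *alx-3(RNAi)* animals held 9.64, 11.2 and 10.5 CPM and tails at 0.5 HPA 1.34, 1.5 and 1.34 CPM, a log2 difference of 2.82 (SE 0.10, adjusted p = 2.35e-06). From there the transcript was at 2.78, 3.06 and 2.32 CPM at 24 HPA, 6.00, 5.10 and 5.79 CPM at 48 HPA and 7.74, 8.78 and 8.52 CPM at 72 HPA, each of these groups above the one before. At 6 HPA it was at 1.41, 3.73 and 4.02 CPM, which overlapped 0.5 and 24 HPA. The rise at 72 HPA was 1.55 (SE 0.19, adjusted p = 8.39e-05). Controls at 72 HPA were at 14.3, 19.2 and 20.8 CPM, above every *alx-3(RNAi)* library of that time.

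SmedASXL_073101 was a low transcript with a clean profile. Its *alx-3(RNAi)* levels were 0.913, 1.05 and 0.951 CPM at 48 HPA and 1.38, 1.29 and 1.46 CPM at 72 HPA, above the 12 earlier libraries (rise 1.22, SE 0.14, adjusted p = 2.73e-05). Its neighbour in number, SmedASXL_073102, had a rise of 0.72 (SE 0.08, adjusted p = 2.09e-05), and both overlapped controls at 72 HPA (log2 differences of *alx-3(RNAi)* minus control of 0.13 and 0.12). The other 3 of the 6 largest rises were SmedASXL_072863 at 1.00, SmedASXL_071057 at 0.91 and SmedASXL_076454 at 0.90, with adjusted p of 0.00151, 0.0221 and 0.00245. The call of SmedASXL_071057 was lost without any one of the 72 HPA libraries (adjusted p of 0.0676 to 0.123).

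**Figure D2:**
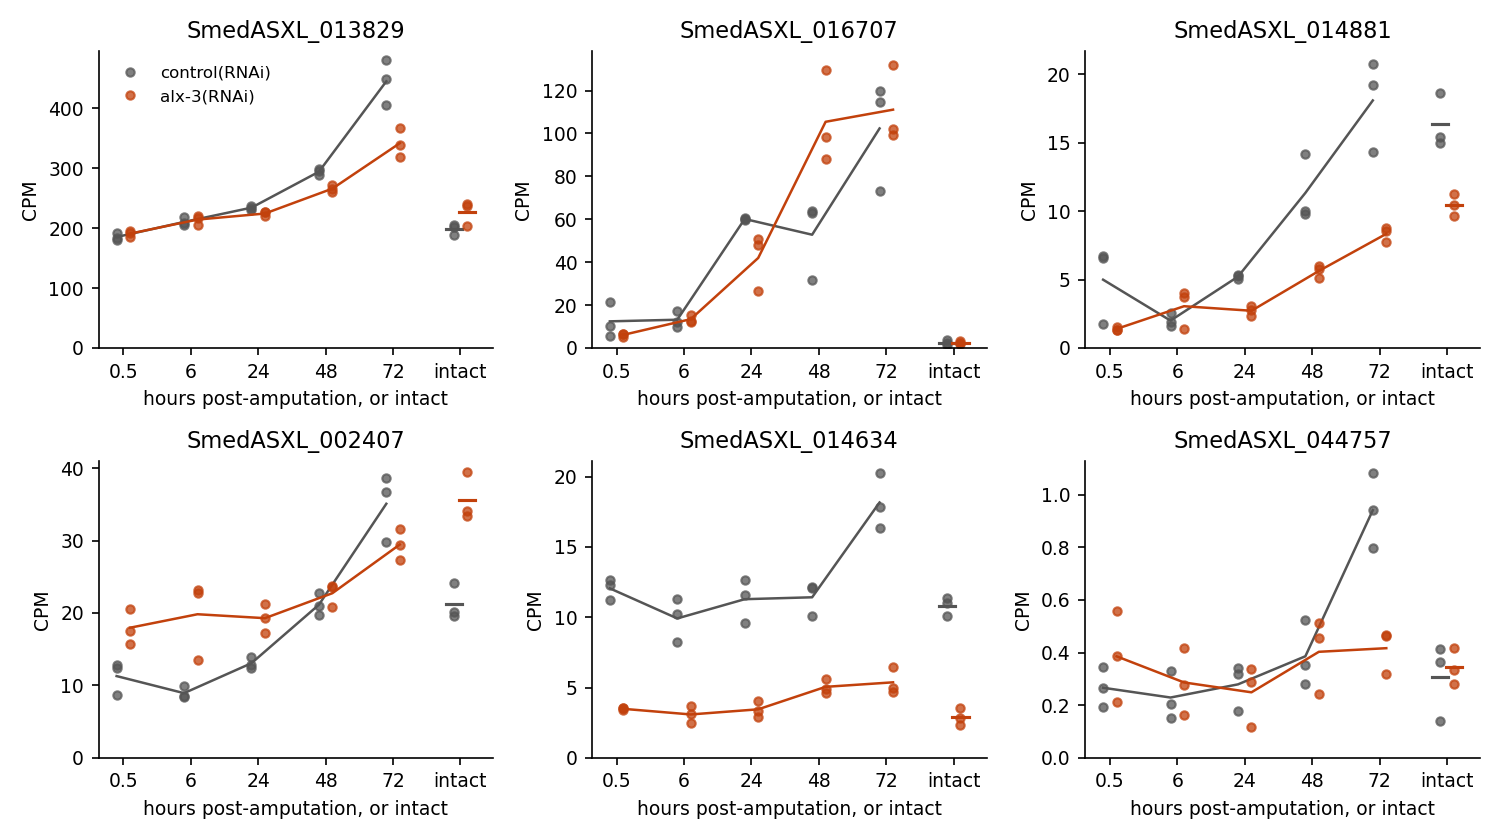
CPM (y axis, from 0) of 6 of the 150 transcripts in each library, by hours post-amputation or in intact animals (x axis); points are libraries, lines join group means of tail fragments and short bars are the means of intact animals. SmedASXL_016707 was as high in *alx-3(RNAi)* as in controls at 72 HPA, while SmedASXL_014634 was lower in *alx-3(RNAi)* at every time and SmedASXL_044757 stayed at 0.319 to 0.468 CPM at 72 HPA in *alx-3(RNAi)*.

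The 6 smallest differences in *alx-3(RNAi)* tails were all below 0 and none passed the test. They were -0.23 for SmedASXL_077487, -0.21 for SmedASXL_068554 and for SmedASXL_073621, -0.20 for SmedASXL_016888, and -0.07 for SmedASXL_072056 and for SmedASXL_062696, with adjusted p of 0.625 to 0.934. SmedASXL_062696 shows what 1 library can do at such levels: its 72 HPA values in *alx-3(RNAi)* were 0.927, 0.985 and 0.301 CPM, and without the last of these libraries the difference was 0.40. SmedASXL_068554 also changed sign without that library, to 0.16.

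The 10 transcripts with the widest margins in controls were called in 4 cases in *alx-3(RNAi)* tails. SmedASXL_044757, at rank 1, was at 0.799, 1.08 and 0.943 CPM in controls at 72 HPA, above a control maximum of 0.524 CPM at the other tail times. In *alx-3(RNAi)* it was at 0.463, 0.319 and 0.468 CPM at 72 HPA and reached 0.558 CPM at 0.5 HPA, so the 72 HPA libraries did not stand out (0.32, SE 0.27, adjusted p = 0.624). SmedASXL_067389, at rank 2, was at 1.82, 1.5 and 1.99 CPM at 72 HPA against at most 1.44 CPM before, and was called (0.88, SE 0.14, adjusted p = 0.000849).

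SmedASXL_018969, at rank 4, climbed in *alx-3(RNAi)* from 13.8, 17.1 and 12.2 CPM at 0.5 HPA to 32.2, 35.6 and 37.3 CPM at 72 HPA, where its lowest library equalled the highest at 48 HPA to 3 digits (0.70, SE 0.11, adjusted p = 0.000535). SmedASXL_070053 and SmedASXL_077745 were also called, at 0.74 and 0.63 with adjusted p of 0.0377 and 0.0240. The call of SmedASXL_070053 was lost without replicate 1 or 2 of 0.5 HPA, replicate 1 of 48 HPA or replicate 2 or 3 of 72 HPA (adjusted p of 0.0520 to 0.192), and that of SmedASXL_077745 without any one of the 72 HPA libraries (0.0553 to 0.129) and in 1 fit over all 36 libraries (0.0518). The other 5 of these 10 (SmedASXL_067075, SmedASXL_065175, SmedASXL_078095, SmedASXL_011735, SmedASXL_075524) had differences of 0.25 to 0.67 and adjusted p of 0.105 to 0.519.

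Read in the *alx-3(RNAi)* columns, the rule's own pattern, all 3 libraries at 72 HPA above all 12 earlier tail libraries, was met by 23 of the 150 transcripts (15.3%). The share was 1.09% over all transcripts tested and 11.2% over the 944 transcripts that met the pattern in controls with a smaller margin. All 23 were among the 40 called, but the pattern and the calls were read from the same libraries and are not separate results. Choosing transcripts from the *alx-3(RNAi)* columns by the same rule gave 334, of which 129 were on the control list, 11.8% of the control list and 38.6% of the *alx-3(RNAi)* list. In *alx-3(RNAi)* the highest tail mean was at 72 HPA for 88 of the 150, at 0.5 HPA for 25, at 48 HPA for 24, at 24 HPA for 9 and at 6 HPA for 4.

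**Figure D3:**
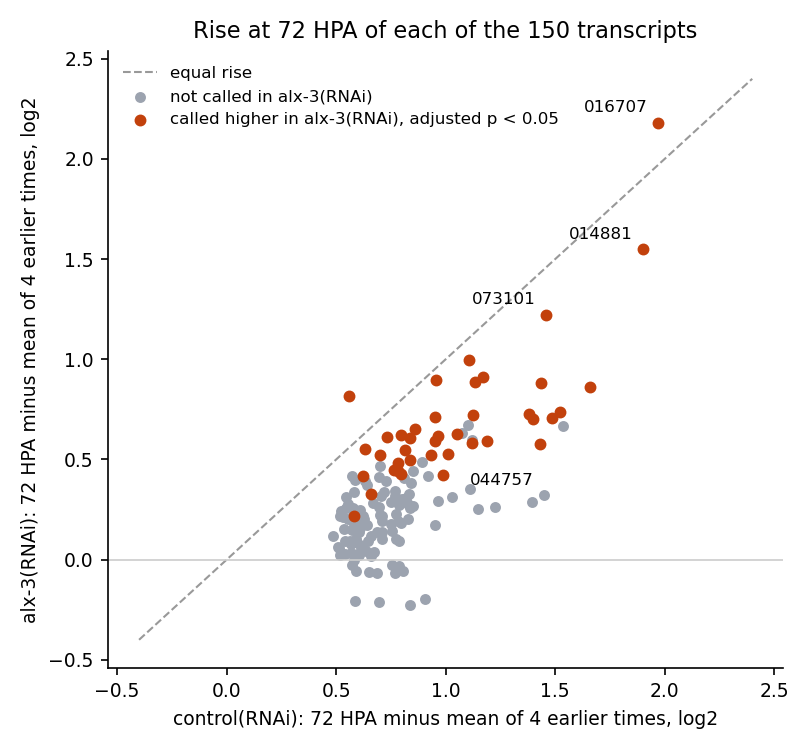
Each point is 1 of the 150 transcripts, placed by its 72 HPA mean minus the mean of the 4 earlier times on the log2(CPM + 0.1) scale in *control(RNAi)* (x axis, the libraries that chose the transcripts) and in *alx-3(RNAi)* (y axis); the dashed line marks equal rises and the orange points are the 40 called in *alx-3(RNAi)*. The rise was larger in controls for 148 of the 150, which the choice on control values favours.

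At 72 HPA the 150 transcripts were lower in *alx-3(RNAi)* than in controls by a median log2 difference of -0.51, with 145 below 0. All transcripts tested at that time had a median of -0.18 on the same scale. For 108 of the 150 (72.0%) all 3 *alx-3(RNAi)* libraries lay below all 3 controls, against 28.9% of all transcripts and 74.0% of the 944 transcripts with the pattern and a smaller margin. They lay above for 1, against 6.99% of all. The control libraries in this comparison are the ones that chose the transcripts for being high, so no test was made and a lower value in any other set of libraries is what the choice favours. With the authors' scaling or median of ratios scaling the median over all transcripts was 0.01 and that over the 150 was -0.33 or -0.31. With either of these, all 3 *alx-3(RNAi)* libraries lay below all 3 controls for 71 of the 150, against 11.3% of all. Ribosomal RNA took 12.1% to 12.8% of control libraries and 13.2% to 14.8% of *alx-3(RNAi)* libraries at 72 HPA; its part in the difference was not tested beyond these scalings.

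At the other times, medians of the 150 lay near 0. They were 0.02 at 0.5 HPA, -0.06 at 6 HPA, -0.04 at 24 HPA, -0.06 at 48 HPA and -0.04 in intact animals, beside -0.08, -0.12, -0.07, -0.14 and -0.07 over all transcripts tested. All 3 *alx-3(RNAi)* libraries lay below the controls for 12, 22, 13, 18 and 15 of the 150 at these times (8%, 14.7%, 8.67%, 12% and 10%), where 17.7%, 19.1%, 20.7%, 22.3% and 14.9% of all transcripts did. They lay above for 20, 18, 22, 15 and 15 of the 150, against 6.83%, 5.80%, 8.83%, 6.44% and 7.85% of all. The controls at 0.5 to 48 HPA also entered the choice, which favours low control values at those times. The counts for these tail times are thus a description only, while the intact libraries did not enter the choice.

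**Figure D4:**
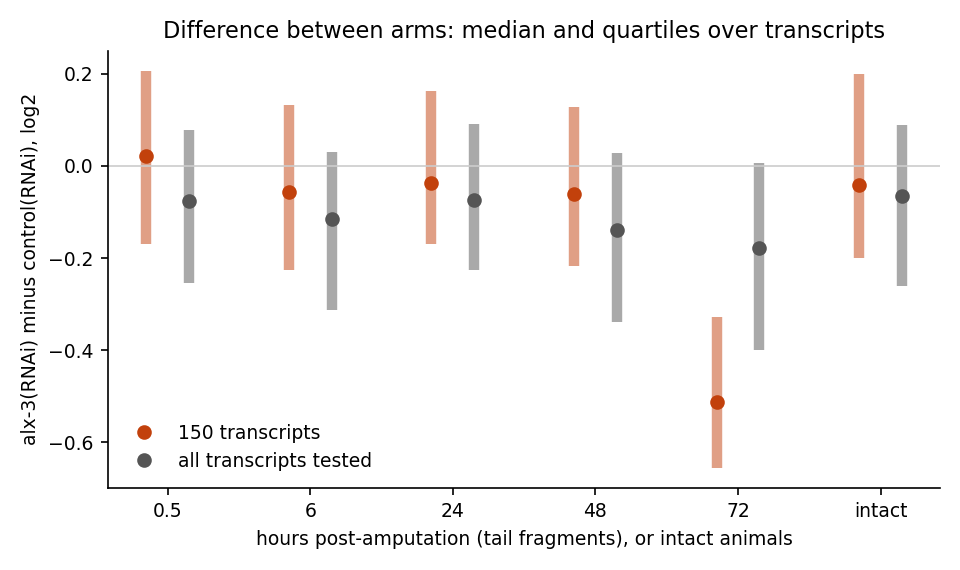
Log2 difference of *alx-3(RNAi)* minus *control(RNAi)* (y axis) by hours post-amputation or in intact animals (x axis), as the median (point) and the range from the first to the last quartile (bar) over the 150 transcripts and over all transcripts tested. At 72 HPA, where the choice asked for high control values, the medians were -0.51 and -0.18. At the other tail times, where it asked for lower control values, and in intact animals, the 150 had medians between -0.06 and 0.02.

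The size of the 72 HPA difference varied among the 150 from -1.75 to 0.23. SmedASXL_014634 was the lowest, at 16.4, 20.2 and 17.9 CPM in controls and 6.44, 4.97 and 4.69 CPM in *alx-3(RNAi)*. It was followed by SmedASXL_016888 at -1.23, SmedASXL_014881 at -1.09 and SmedASXL_044757 at -1.02. At the other end were SmedASXL_007652 at 0.23, SmedASXL_016707 at 0.14 and the pair SmedASXL_073101 and SmedASXL_073102, while SmedASXL_017818, with 1030.0, 1374 and 1362 CPM in controls and 1099, 1443 and 1071 CPM in *alx-3(RNAi)*, differed by -0.06. With the authors' scaling the differences of SmedASXL_014634 and SmedASXL_014881 were -1.56 and -0.89, with no overlap, and that of SmedASXL_017818 was 0.15. The transcripts named in this paragraph were picked for their values.

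In intact animals, where no library had been used for the choice, 3 of the 150 were higher in *alx-3(RNAi)* and 2 lower (0.421% and 1.09% of the 32541 transcripts tested, limma, adjusted p under 0.05). At an unadjusted p under 0.05, 15 were higher and 12 lower, where 5.58% and 13.8% of all transcripts were. SmedASXL_014634 held 11, 11.4 and 10.1 CPM in intact controls and 3.52, 2.36 and 2.80 CPM in *alx-3(RNAi)*, a log2 difference of -1.88 (SE 0.14, adjusted p = 0.000293). It was lower in every *alx-3(RNAi)* library than in every control library at all 6 times; at 0.5 HPA the values were 12.6, 12.3 and 11.2 CPM against 3.54, 3.54 and 3.38 CPM. It had the lowest difference of the 150 in intact animals, where that of the *alx-3* transcript itself was -2.13. SmedASXL_014881 was lower by 0.64 on the log2 scale in intact *alx-3(RNAi)* animals (-0.64, SE 0.10, adjusted p = 0.0183).

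SmedASXL_002407 went the other way in intact animals. It was at 19.6, 20.1 and 24.1 CPM in intact controls and 33.4, 39.5 and 34.0 CPM in *alx-3(RNAi)* (0.74, SE 0.10, adjusted p = 0.00694). In tails it was also higher in *alx-3(RNAi)* at first, with 17.6, 20.6 and 15.7 CPM against 8.62, 12.5 and 12.8 CPM at 0.5 HPA, and the arms overlapped from 48 HPA. SmedASXL_011038 (0.63, adjusted p = 0.0275) and SmedASXL_018969 (0.49, adjusted p = 0.0159) were the other transcripts higher in intact *alx-3(RNAi)* animals. Without intact *alx-3(RNAi)* replicate 2 the calls were 15 higher and 13 lower of the 150, where 1846 and 4128 of all 31534 transcripts tested were. Without any one of the 5 other libraries only 1 or 2 of the 150 were called in all. SmedASXL_014634 was among them each time, SmedASXL_002407 was lost without control replicate 2 alone, and SmedASXL_014881, SmedASXL_011038 and SmedASXL_018969 were lost each time.

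In controls, the 150 transcripts were mostly lower in intact animals than in 72 HPA tails. All 3 intact control libraries lay below the 3 at 72 HPA for 121 of the 150, against 25.4% of all transcripts, and above for 2, against 20.4%; the 72 HPA libraries chose the transcripts, so this is a description. Between intact animals and freshly cut tails of *alx-3(RNAi)*, 18 of the 150 were higher in intact animals and 2 lower (9.75% and 6.50% of the 32699 transcripts tested), with a median log2 difference of 0.10, beside 0.02 over all. The share of 12% called higher was close to that of all transcripts. Leaving out 1 library moved the count of higher calls to between 6 and 26: it was 6, 10 and 10 without 0.5 HPA replicates 1, 2 and 3, and 7, 26 and 9 without intact replicates 1, 2 and 3. Over all transcripts the higher calls ran from 1580 to 4232 in these fits, against 3188 with all 6 libraries.

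Besides SmedASXL_014881, the transcripts with the largest excess in intact *alx-3(RNAi)* animals were SmedASXL_070929 (1.16, adjusted p = 0.0272; 0.0681 to 0.0947 without 0.5 HPA replicate 1 or intact replicate 1 or 3), SmedASXL_006866 (1.14, adjusted p = 8.68e-05) and SmedASXL_072863 (1.05, adjusted p = 0.00732). SmedASXL_006866 was at 32.3, 32.9 and 31.7 CPM in intact *alx-3(RNAi)* animals, at 14.1, 16.2 and 13.7 CPM in tails at 0.5 HPA, and at 19.8, 21.7 and 20.8 CPM at 72 HPA. Its 72 HPA libraries lay above all earlier tails and below all intact animals. At the low end, after SmedASXL_016707, stood SmedASXL_016888, with 0.106, 0.231 and 0.101 CPM in intact animals and 0.375, 0.444 and 0.388 CPM at 0.5 HPA (-1.07, SE 0.26, adjusted p = 0.0254), with no overlap. That call was lost without any one of these libraries but intact replicate 2 (adjusted p of 0.0767 to 0.0858). SmedASXL_017818 and SmedASXL_066484 had differences of -0.64 and -0.61 and did not pass (adjusted p = 0.189 and 0.259).

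Gene names were available for other IDs, and 27 of the 276 named IDs listed at all tail times met the same pattern in controls. They include the genes for the Argonaute-family proteins of neoblasts, *piwi-1*, *piwi-2* and *piwi-3*, the neoblast RNA-binding protein gene *bruli*, the neoblast Sox factor *soxP-1*, the neural transcription factor gene *COE*, *soxB-1*, the gap junction gene *innexin-1* and the epidermal progenitor marker *prog-2*. In *alx-3(RNAi)* tails 14 of the 27 were called higher at 72 HPA than over the earlier times and 0 lower (limma; the shares among all transcripts were 3.15% and 1.63%). The pattern itself was met in *alx-3(RNAi)* by 3 of the 27, against 1.09% of all transcripts. At 72 HPA 25 of the 27 had all *alx-3(RNAi)* libraries below all controls in CPM (28.9% of all transcripts) and 9 of the 27 with the authors' scaling (11.3%); the 72 HPA controls chose these 27 for being high.

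*soxP-1* was at 18.1, 19.5 and 18.5 CPM at 0.5 HPA and 39.8, 43.7 and 50.9 CPM at 72 HPA in *alx-3(RNAi)* (0.83, SE 0.07, adjusted p = 1.09e-06). Its controls were at 61.8, 65.3 and 69.0 CPM at 72 HPA. *piwi-1* went from 526 to 552 CPM at 0.5 HPA to 825, 890.2 and 887 CPM at 72 HPA in *alx-3(RNAi)* (0.42, SE 0.04, adjusted p = 1.09e-06), beside 1028, 1085 and 1079 CPM in controls; *piwi-2* and *piwi-3* rose by 0.33 and 0.31 (adjusted p = 7.45e-06 and 3.93e-05) and *bruli* by 0.45 (adjusted p = 6.74e-07). All of these neoblast transcripts overlapped between the arms or were higher in *alx-3(RNAi)* at 0.5 HPA, and were below controls in CPM at 72 HPA. With the authors' scaling the arms overlapped at 72 HPA for all 5 and the difference of *bruli* turned from -0.13 to 0.08.

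*soxB-1*, a Sox family transcription factor gene, was the only one of the 27 called above 48 HPA, as SmedASXL_013829 was among the 150. It stayed at 4.59 to 5.96 CPM through 48 HPA and then stood at 8.36, 8.61 and 8.03 CPM at 72 HPA in *alx-3(RNAi)* (72 minus 48 HPA 0.55, SE 0.09, adjusted p = 0.0311). That call was lost with median of ratios scaling, where 0 of all transcripts were called above 48 HPA. It was also lost without 48 HPA replicate 1 or 2 or 72 HPA replicate 1 or 3 of *alx-3(RNAi)*. *innexin-1* (0.60, adjusted p = 0.00109), *COE* (0.45, adjusted p = 0.00741; 0.0511 or 0.0513 without 72 HPA replicate 3 or 2), *spondin*, an extracellular matrix gene (0.29, adjusted p = 0.00289), and *mex3-1*, an RNA-binding protein gene (0.19, adjusted p = 0.0470), were also called; the call of *mex3-1* was lost in 14 alternatives. *prog-2* was not (0.07, adjusted p = 0.836): it was already at 3.27 to 5.56 CPM at 0.5 to 48 HPA in *alx-3(RNAi)*, where controls held 1.45 to 2.34 CPM, and at 72 HPA it was at 3.92, 4.57 and 4.45 CPM against 3.65, 3.82 and 3.45 CPM, still above every control. The others of the first 15 by margin, *chx10*, *kismet*, *Ash1*, *TMEM194A*, *dom-1* and *chd4/Mi-2*, had differences of 0.12 to 0.52 and adjusted p of 0.0737 to 0.609.

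**Figure D5:**
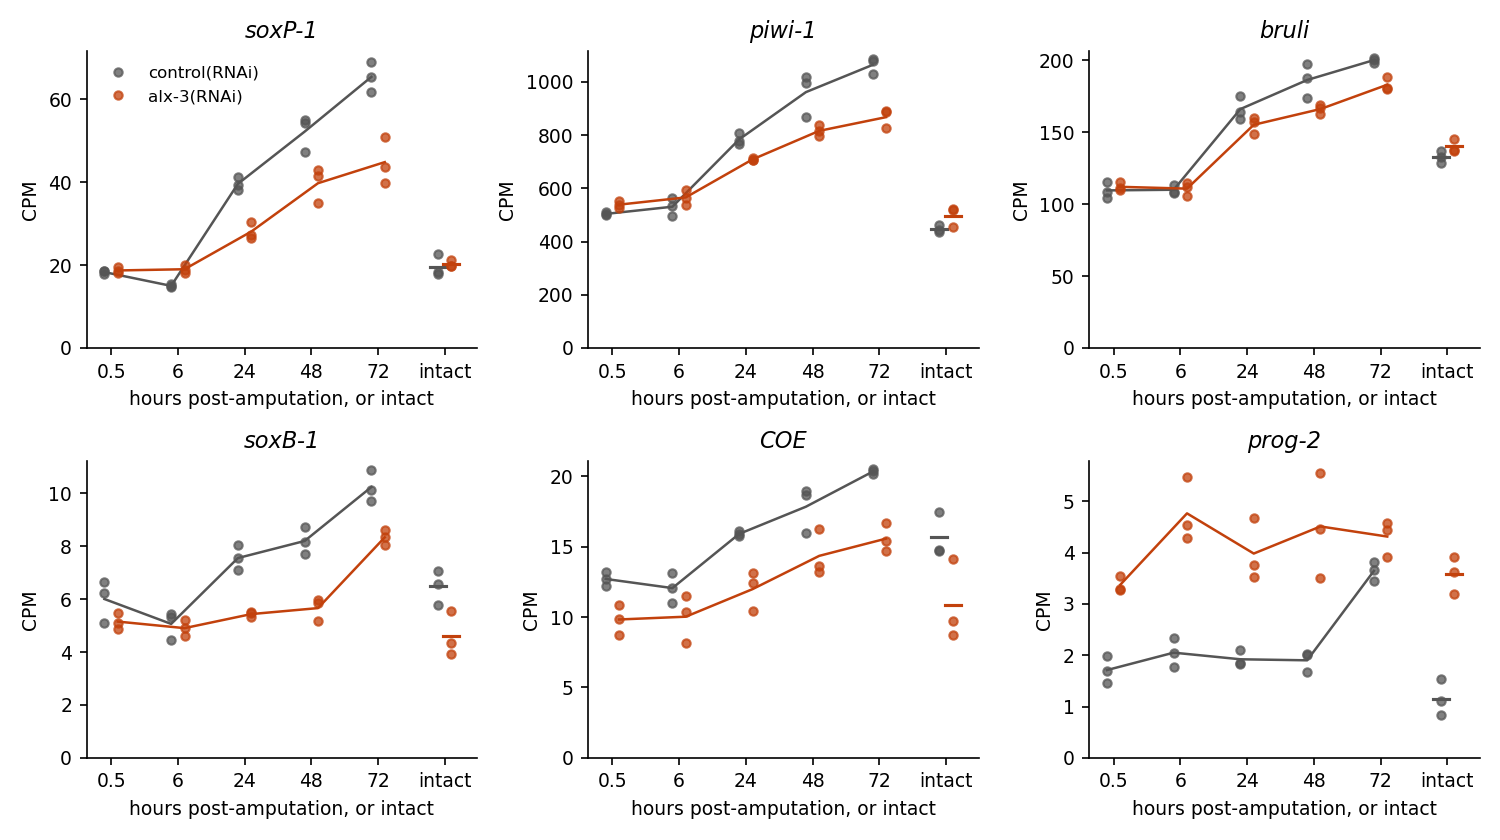
CPM (y axis, from 0) of 6 genes with a name that met the same 72 HPA pattern in controls, in each library, by hours post-amputation or in intact animals (x axis); points are libraries, lines join group means of tail fragments and short bars are the means of intact animals. *soxP-1*, *piwi-1*, *bruli*, *soxB-1* and *COE* were called higher at 72 HPA than before in *alx-3(RNAi)*, and *prog-2*, at 3.27 to 5.56 CPM in the earlier *alx-3(RNAi)* tails, was not.

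By gene list, calls in *alx-3(RNAi)* tails were as follows, where 3.15% of all transcripts were called higher at 72 HPA and 1.63% lower; the lists were not tested against each other. Of 9 stem cell genes, 8 were higher at 72 HPA than before (the 3 *piwi* genes, *bruli*, *soxP-1*, *soxP-2*, *soxP-3* and the replication clamp gene *PCNA*) and *p53* was at 0.01 (adjusted p = 0.930). Their median was 0.31, and 5 of the 9 met the pattern in controls. With median of ratios scaling, or without 72 HPA replicate 3, 6 of the 9 were called. Of 7 posterior genes, 4 were lower (*Fzd-d*, *sp5*, *wnt11-1*, *wntP-2*) and *wntP-3* was higher at 0.36, and 0 met the pattern. Without 72 HPA replicate 2 or 3, 2 were lower, and without replicate 1 or 3, 0 were higher. Of 6 anterior genes, the Wnt ligand gene *wnt2-1* was higher at 1.14 and the activin inhibitor gene *follistatin* lower at -0.43, and 0 met the pattern. The call of *wnt2-1* was lost without 72 HPA replicate 1 or 3. Of 23 epidermal progeny genes, 4 were higher and 1 lower, with *prog-2* alone meeting the pattern. Only 1 was higher and 0 lower without 72 HPA replicate 3. Of 6 neural genes tested 3 were higher (*COE*, *ascl-1* and 1 of the 2 *NKX2.1* entries) and 0 lower. Only 1 of the 6 was called higher without 72 HPA replicate 3, and 2 were without replicate 1 or 2. *NXK2.2*, the 1 pharynx and gut gene, was at 0.01 and *titin*, the 1 muscle gene, at -0.78 and not called. In intact animals the knockdown called 7 of the 23 epidermal progeny genes higher, *prog-2* most at 1.58, and 0 of the other lists in either direction (0.421% of all transcripts were called higher and 1.09% lower). Without intact *alx-3(RNAi)* replicate 2 it called 19 of the 23 higher and 2 lower, and in the other lists 3 anterior genes lower, 1 posterior gene higher and 1 lower, 4 stem cell genes higher, 1 neural gene higher and 2 lower, and *NXK2.2* and *titin* lower. Over all 31534 transcripts tested in that fit, 1846 were called higher and 4128 lower. Without any one of the 5 other libraries the knockdown called 0 to 3 of the 23 higher.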

How the data were processed

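RNA was measured in 36 polyA-selected libraries, 18 from each RNAi arm. Per the labels and methods, reads were trimmed with Trimmomatic 0.39, quantified against the Smed_ASXL transcriptome with Salmon 1.4.0 and scaled within each time point with DESeq2 1.30.1. The signal the authors deposited is a normalized count for each transcript in each library; headers name it RPKM, but row means equal the mean normalized counts in the authors' result tables for 100% of transcripts. Fold changes and p-values in those tables were not used. Whole reads could not be recovered, so no count model was fitted.

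Because scaling was separate for each time, values were rescaled to CPM, with a library sum of 1000000, which keeps changes in total RNA out of view. Contrasts were fitted with limma 3.58.1 in R 4.3.3 (lmFit, eBayes with trend, two-sided) on log2(CPM + 0.1), which understates changes of low transcripts, and Benjamini-Hochberg adjustment ran over all transcripts that reached 10 normalized counts in 3 or more libraries. Groups hold 3 libraries, so p-values rest on the spread among few animals' samples. Alternatives were other pseudocounts, filters, scalings, a replicate block, 1 fit over all 36 libraries, and leaving out each library.

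The rule, the gene lists and the tests were chosen with earlier results of these data known. Transcripts named in the text are *alx-3*, the first 10 by rank, the 6 largest and 6 smallest *alx-3(RNAi)* rises, the 4 at each end for intact minus 0.5 HPA, those called in intact animals, the first 15 named IDs with the pattern, list members that passed a test, and 3 on each side of the rank limit; others are said to be picked for their values.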

Additional observations from a re-analysis of the deposited data

Results flagged for a closer look

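On the CPM scale, in 4 of the 150 transcripts every *alx-3(RNAi)* value exceeded every control value in intact animals and fell short of every control value at 72 HPA. Taken singly, 15 of the 150 lay wholly above controls in intact animals and 108 wholly below at 72 HPA. Another 15 that lay wholly below at 72 HPA did not overlap in the same direction in intact animals. The share of all transcripts with such a reversal was not counted, so the 4 are not shown to be more than usual. The log2 difference of *alx-3(RNAi)* minus control was 0.72 in intact animals and -0.94 at 72 HPA for SmedASXL_065175, a gap of -1.66. It was 0.43 and -0.29 for SmedASXL_018915 (gap -0.71), 0.29 and -0.31 for SmedASXL_018956 (gap -0.60), and 0.19 and -0.28 for SmedASXL_079460 (gap -0.47). With the authors' scaling the 72 HPA libraries of the 2 arms overlapped for the last 3 of these (differences of -0.08, -0.11 and -0.07) and did not for SmedASXL_065175 (-0.85). The difference between the 2 stages was not tested, and the 72 HPA controls chose these transcripts for being high. None of the 4 passed the test in intact animals (adjusted p of 0.0784 to 0.208).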

How the results depend on the processing

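Counts of calls among the 150 moved with single libraries, a fold threshold and the pseudocount of the rule. An absolute log2 difference of at least 1 left 3 of the 40 called in *alx-3(RNAi)* tails at 72 HPA, 0 of the 1 called above 48 HPA, 5 of the 18 higher in intact animals than at 0.5 HPA and 1 of the 5 changed in intact animals. Over all transcripts this threshold took the higher calls of the first 3 comparisons from 1162 to 48, from 4 to 2 and from 3188 to 867. For the arms in intact animals it took 137 higher and 355 lower calls to 9 and 83. Leaving out 1 library gave 25 to 41, 0 to 2, 6 to 26 and 1 to 28 calls for these 4 comparisons. Calls over all transcripts moved too. The higher calls ran from 464 to 1167, 0 to 10, 1580 to 4232 and 13 to 1846. In the last comparison the lower calls ran from 73 to 4128. With median of ratios scaling 0 were called above 48 HPA. Among the first 75 transcripts 11 were higher in intact animals than at 0.5 HPA. For the comparison of the arms in intact animals, 1 fit over all 36 libraries called 16, and the replicate block called 3. Among all transcripts the first called 928 higher and 2282 lower of 32400, and the second 39 and 120 of 32541. Choosing the transcripts with a pseudocount of 1 CPM, which kept 102 of the 150, gave 60 calls at 72 HPA over earlier tails, 1 above 48 HPA, 27 higher in intact animals than at 0.5 HPA and 10 changed in intact animals. The deviations of same-numbered *alx-3(RNAi)* tail libraries had a mean correlation of 0.024 over 30 pairs, with 6 over 0.1, and 8 of 15 libraries correlated best with their own number, so libraries were not treated as pairs; the replicate block gave 42, 1 and 15 calls in the first 3 comparisons. The median 72 HPA difference between the arms, -0.51, was -0.33 with the authors' scaling, -0.31 with median of ratios scaling and -0.35 with a pseudocount of 1 CPM, and -0.57 to -0.47 without 1 library. The 72 HPA pattern in *alx-3(RNAi)* was met by 29 to 30 transcripts when 1 library was left out. Scaling also moved the share of higher calls over all transcripts: from 65.9% to 55.8% (median of ratios) for 72 HPA over earlier tails, and from 27.8% to 44.0% (median of ratios), 46.0% (quantile) or 43.4% (authors' scaling) for the arms in intact animals. Without 1 library the 72 HPA rise of SmedASXL_068554 ran from -0.39 to 0.16 and that of SmedASXL_062696 from -0.32 to 0.40, and both changed sign without 72 HPA replicate 3 of *alx-3(RNAi)*. The causes of these changes were not tested.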

Other observations

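Among intact *alx-3(RNAi)* animals, replicates 1 and 3 differed from replicate 2 in several abundant transcripts, picked here for their values. SmedASXL_017818 was at 268, 585 and 246 CPM in replicates 1, 2 and 3, beside 506 to 799 CPM in intact controls, and SmedASXL_018427 at 51.0, 97.5 and 52.9 CPM beside 73.4 to 87.3 CPM. The chromatin genes *chd4/Mi-2* (77.3, 203 and 77.5 CPM) and *Ash1* (34.4, 89.3 and 31.8 CPM), which share the 72 HPA pattern in controls, showed the same split, as did *kismet* (50.3, 83.2 and 51.0 CPM). Controls held 163 to 181, 76.9 to 85.7 and 75.5 to 86.5 CPM of these. Ribosomal RNA took 13.8%, 12.6% and 14.2% of the 3 libraries. In *alx-3(RNAi)* tails at 72 HPA replicate 2 was again the highest, by less, with SmedASXL_017818 at 1099, 1443 and 1071 CPM, *chd4/Mi-2* at 230.2, 294 and 268 CPM, *Ash1* at 104, 136 and 116 CPM and *kismet* at 77.7, 94.8 and 79.8 CPM.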
